A study of Drosophila melanogaster with 12 samples.

Results

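The comparison described here is between S2 cells exposed to 25 µmol/L TMPyP4 and S2 cells exposed to the solvent DMSO. S2 is an established Drosophila melanogaster line with properties of embryonic blood cells (hemocytes), and TMPyP4 is a cationic porphyrin that binds G-quadruplexes. The 6 libraries were taken by their labels, 3 per group, from a series of 12 libraries that also holds 3 libraries each at 50 and 100 µmol/L. Per the labels, all cells were the unmodified line S2, grown at 28°C, and were sampled after 48 hours. The control is labelled as DMSO at 100 microgram/L, and whether the treated cultures held the same amount is not stated. Every library is labelled as a mixed-species preparation with zebrafish RNA. Libraries were stranded and selected for polyadenylated RNA. The labels do not say whether replicates were separate cultures, so p-values measure the spread between these libraries, which may be technical.

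A G-quadruplex is a stack of guanine tetrads that forms in guanine-rich DNA or RNA, and ligands of TMPyP4's kind bind and stabilise or distort such stacks. Insect cells answer protein damage through heat shock factor, which drives the genes of the Hsp70 and small heat shock chaperones and their cofactors. Hemocytes also run the Imd pathway, in which peptidoglycan receptors signal through the adaptor imd to the NF-kB protein Relish (Rel) and to antimicrobial peptide genes. Peroxiredoxins remove peroxides with a reactive cysteine.

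The depth was 7711896 to 9241109 gene counts per DMSO library and 7570350 to 7955869 per 25 µmol/L library. All levels below are CPM, read counts scaled to the same library total with TMM factors. The cells had the profile of a hemocyte line. Of 21 hemocyte markers, 14 averaged at least 1 CPM in DMSO, among them Hml, Pxn, srp and Col4a1, while NimC1 and NimC2 had no count in any of the 6 libraries. None of 10 neuron markers and none of 12 fat body and gut markers reached that level. Of 12 muscle markers 3 did, and of 10 germline and follicle cell markers 6 did, namely bam, bgcn, aub, Fas3, piwi and Nos. The last was matched to the list entry nos and may be another gene than the germline marker. Libraries within a group were not equally alike. DMSO replicate 1 stood apart from DMSO replicates 2 and 3 (chi-square per gene 24.4 and 24.6, against 9.75 between replicates 2 and 3). Replicate 1 at 25 µmol/L likewise stood apart from replicates 2 and 3 (19.6 and 19.9, against 4.06). Genes encoded by the mitochondrial genome took 1.14 to 2.21% of the counts in DMSO and 1.78 to 3.09% at 25 µmol/L.

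At 25 µmol/L, few genes were called changed, and without an offset for exonic length most of the called genes were lower. Of 7328 genes tested with edgeR, 122 were called changed at an adjusted p under 0.05, which is 1.66% of the genes tested. Of these, 39 were higher (0.532%) and 83 lower (1.13%), and 52 differed by at least 2-fold (0.71%). Among called genes with a mean log2 CPM of at least 1, those that rose most were pirk, an inhibitor of the Imd pathway, and a group of neighbouring genes made up of CG11825 and the peroxiredoxin genes Prx6c, Prx6b and CG12896. The genes that fell included 9 of the heat shock and co-chaperone lists, and many with long transcripts, such as shot, HUWE1, Smr and trx. Before adjustment, 539 genes were higher (7.36%) and 601 lower (8.2%) at p under 0.05. In 788 genes (10.8%) all 3 treated libraries lay above all 3 DMSO libraries, and in 632 (8.62%) all lay below.

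The count of calls rested on single libraries. Leaving out DMSO replicate 1 gave 15 calls, replicate 2 gave 162 and replicate 3 gave 43. Leaving out 25 µmol/L replicate 1 gave 200 calls, replicate 2 gave 6 and replicate 3 gave 24. The 6 genes called in all of these fits were pirk, CG11825, CG12896 and Prx6c, all higher, and shot and HUWE1, both lower. The library titles carry numbers that fall into 4 runs of 3 libraries. One run holds DMSO replicate 3 with 25 µmol/L replicates 1 and 2, and another holds DMSO replicate 1 with 25 µmol/L replicate 3. What the numbers stand for is not stated. With the run as a term in the fit, 12 genes were called, and the same 6 genes were among them. The groups overlapped for 1 of the 122 called genes, htt. All 122 had the same direction within both runs. Where groups do not overlap this must be so, and it is no separate check on the runs.

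**Figure D1:**
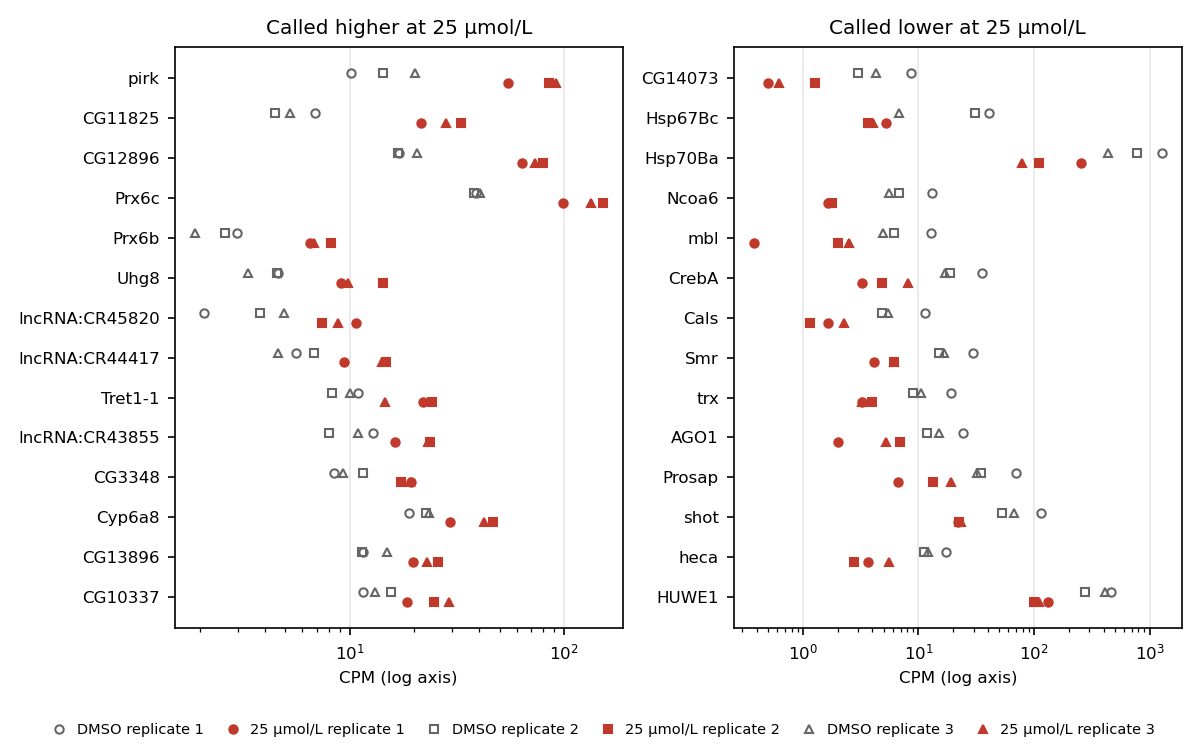
Levels in CPM (log axis) of the 14 genes called higher and the 14 called lower with the largest log2 changes, where the mean log2 CPM was at least 1 and the groups did not overlap. Each point is 1 library, grey and open for DMSO, red and filled for 25 µmol/L, with the shape giving the replicate. In every row the 3 red points lie on one side of the 3 grey points, and the widest gaps relative to the spread are those of CG12896, Prx6c and CG11825.

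The largest increase among the genes named by that rule was that of pirk, whose protein binds Imd pathway receptors and damps their signal. Its gene (FBgn0034647) lies on the minus strand of arm 2R at 21660967-21662995 (dm6 coordinates, annotation BDGP6.54). The DMSO libraries had 10.1, 14.3 and 20.1 CPM, and the 25 µmol/L libraries had 54.5, 85.4 and 91.5. Every treated library was thus above every DMSO library, which the rule required of each higher gene it named. The lowest treated value came from replicate 1, as did the lowest DMSO value. The fitted log2 change was 2.38, or 5.20-fold, with an SE of 0.24 (edgeR adjusted p = 0.000144). Over the fits that each left out 1 library it ran from 2.16 to 2.67, and the call was kept in all 6. Within the title number runs the difference was 1.75 in one and 3.15 in the other.

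The rest of the Imd pathway was not called. Of 21 tested members of that list, pirk was the only one past the threshold, 15 had a log2 change above 0, and the median was 0.09, against 0.01 over all tested genes. Beside pirk, the members with the smallest p were PGRP-LA and PGRP-LF, which encode a peptidoglycan recognition protein with no known enzyme activity and an inhibitory receptor, and Rel. PGRP-LA had 22.1, 22.0 and 23.8 CPM in DMSO and 32.4, 33.3 and 36.9 at 25 µmol/L (log2 change 0.59, SE 0.148, edgeR adjusted p = 0.0538). PGRP-LF had a log2 change of 0.61 (adjusted p = 0.0798) and Rel of 0.50 (adjusted p = 0.123). For Rel the groups overlapped, with 262, 262 and 327 CPM against 321, 444 and 439.

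Antimicrobial peptide genes, the outputs of the pathway, were low in these cells, and none of the 12 tested was called. The median log2 change of this list was 0.41, or 0.21 with an offset for exonic length. At an unadjusted p under 0.05, 4 of the 12 were higher, beside 7.36% of all tested genes. These were CecA1, CecB, CecC and Mtk. CecA1 had 1.64, 2.09 and 4.52 CPM in DMSO and 4.65, 9.91 and 9.03 at 25 µmol/L, so the groups did not overlap (log2 change 1.50, SE 0.412, edgeR adjusted p = 0.0881). CecB had 0.877, 2.49 and 2.63 CPM against 5.28, 6.61 and 6.27 (log2 change 1.60, SE 0.467, adjusted p = 0.106). Cecropin genes are similar in sequence, so reads could be split among them. The Toll pathway had no call among 15 tested members, and its smallest adjusted p was that of dl, the NF-kB protein Dorsal (log2 change 0.38, adjusted p = 0.19).

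A run of 4 neighbouring genes on arm 2R rose together. In order along the arm they were Prx6c (FBgn0033518, plus strand), CG11825 (FBgn0033519, minus), Prx6b (FBgn0033520, plus) and CG12896 (FBgn0033521, minus), within 9198 bases at 10418718-10427915. Prx6b, Prx6c and CG12896 encode peroxiredoxins of the Prx6 class, and CG11825 encodes a small protein of the hypoxia-induced HIG1 family. Gaps of 652, 785 and 1408 bases separate them. Prx6c had 38.7, 38.1 and 40.3 CPM in DMSO and 98.4, 151 and 134 at 25 µmol/L. CG11825 had 6.91, 4.45 and 5.25 CPM in DMSO and 21.5, 33.0 and 28.0 at 25 µmol/L. CG12896 had 17.0, 16.7 and 20.5 CPM in DMSO and 63.6, 79.9 and 72.8 at 25 µmol/L. In these 3 genes the DMSO libraries lay close together and every treated library was more than 2-fold above all of them. Replicate 1 was the lowest treated library for each. Prx6b was the least abundant, with 2.96, 2.62 and 1.89 CPM in DMSO and 6.54, 8.13 and 6.78 at 25 µmol/L. Its groups did not overlap either, as the rule required.

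The log2 changes were 2.30 for CG11825 (SE 0.268, edgeR adjusted p = 0.000356), 1.99 for CG12896 (SE 0.277, adjusted p = 0.00292), 1.71 for Prx6c (SE 0.194, adjusted p = 0.000356) and 1.52 for Prx6b (SE 0.371, adjusted p = 0.0479). The first 3 of these calls were kept in all 6 fits that left out a library. That of Prx6b was kept in 1 of the 6, with log2 changes of 1.35 to 1.67. Per kilobase of exonic length, mean levels rose from 45.6 to 149 CPM for Prx6c, from 21.3 to 85.0 for CG12896, from 4.29 to 21.3 for CG11825 and from 2.93 to 8.43 for Prx6b, so their order was the same in both groups. Prx6b, Prx6c and CG12896 are similar in sequence, and how the authors assigned reads that match more than 1 of them is not stated. The gene CG33474 overlaps CG11825 on the other strand, and it had 0 to 3 counts per library.

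None of the 12 flanking tested genes, 6 on each side, was called, and their log2 changes were -0.36 to 0.33, with adjusted p of 0.105 or above. With an offset for exonic length CAP, among them, went from -0.12 to 0.66 and was not called (adjusted p = 0.111). RanBPM, the next tested gene downstream, lay at the lower end of that range and Syb, upstream, at the upper end.

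**Figure D2:**
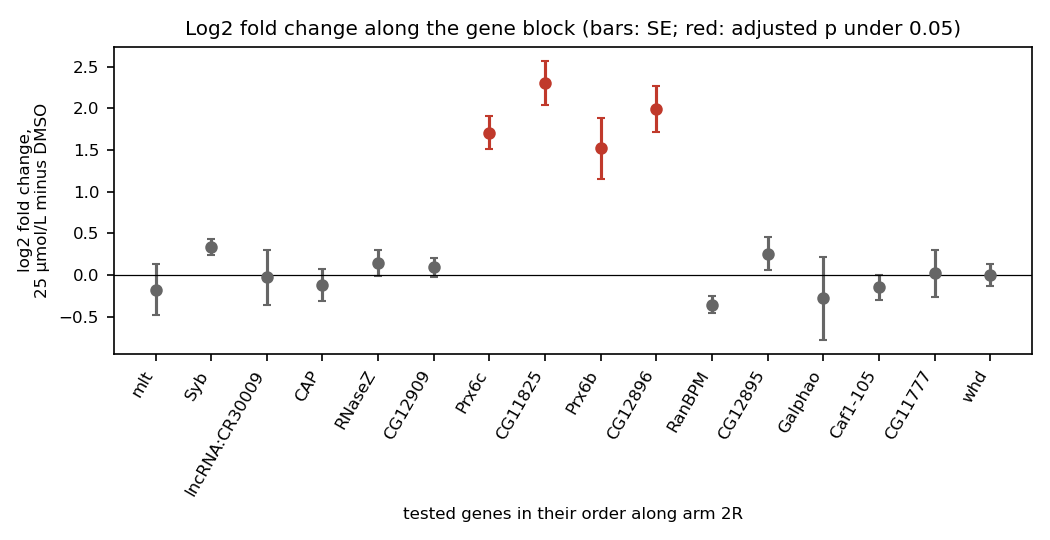
Log2 change at 25 µmol/L against DMSO (points, with SE as bars) for the 4 called neighbours and the 6 tested genes on each side, in their order along arm 2R. The 4 red points stand at 1.52 to 2.30, and the 12 grey points lie between -0.36 and 0.33.

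Other genes of redox defence moved little. The list of peroxiredoxins and thioredoxins had 12 tested members, of which the 3 Prx6 genes above were called higher and none lower, with a median log2 change of 0.15. Of 27 glutathione S-transferases, GstE3 alone was called. It had 60.7, 75.4 and 68.2 CPM in DMSO and 89.9, 106 and 89.3 at 25 µmol/L (log2 change 0.48, SE 0.108, edgeR adjusted p = 0.0332). GstD5, a member of the D class with low counts, had a log2 change of 1.32 that was not called (SE 0.427, adjusted p = 0.134). None of 17 genes of the antioxidant and Nrf2 arm was called, and Keap1, the inhibitor of that arm, had a log2 change of 0.43 (SE 0.242, adjusted p = 0.425). None of 11 genes of heme synthesis and breakdown was called. Heme oxygenase, Ho, had 19.4, 15.3 and 17.4 CPM in DMSO and 19.6, 22.6 and 16.6 at 25 µmol/L, with overlapping groups.

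Single genes of several other lists also rose. Uhg8, a noncoding host gene of small nucleolar RNAs, had 4.60, 4.58 and 3.36 CPM in DMSO and 9.05, 14.2 and 9.79 at 25 µmol/L (log2 change 1.40, SE 0.267, edgeR adjusted p = 0.0191). Of the 7 tested host genes it was the only one called, and 6 had a positive log2 change. The median was 0.75, or 0.53 with an offset for exonic length. Uhg3, Uhg4 and Uhg1 had log2 changes of 0.99, 0.75 and 1.22 with adjusted p of 0.157, 0.242 and 0.259. Among the 165 tested noncoding RNA genes 4 were called higher (2.42%) and none lower, beside 0.532% and 1.13% of all tested genes. Beside Uhg8 these were lncRNA:CR45820, lncRNA:CR44417 and lncRNA:CR43855, with log2 changes of 1.31, 1.17 and 0.98. All 3 were under 25 CPM in every library, and the rule that named them required groups that did not overlap.

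Tret1-1 and ZnT63C carry nutrients or metals across membranes. Tret1-1, a trehalose transporter, had 10.9, 8.24 and 9.98 CPM in DMSO and 22.0, 24.3 and 14.6 at 25 µmol/L (log2 change 1.06, SE 0.236, edgeR adjusted p = 0.0332). ZnT63C, a zinc transporter, had 132, 122 and 115 CPM in DMSO and 159, 187 and 171 at 25 µmol/L (log2 change 0.49, SE 0.101, adjusted p = 0.026), and was the only call among 27 genes of zinc, copper and iron handling. Pvf2, a ligand of the PDGF and VEGF family that acts on hemocytes, had 145, 116 and 105 CPM in DMSO and 167, 277 and 203 at 25 µmol/L (log2 change 0.83, SE 0.166, adjusted p = 0.024). For each of them the groups did not overlap, as the rule required for Tret1-1. The treated libraries differed among themselves more than the DMSO libraries did.

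GILT1, a thiol reductase of the lysosome, had 61.7, 65.5 and 72.4 CPM in DMSO and 103, 105 and 95.7 at 25 µmol/L. Its log2 change was 0.61 (SE 0.105, edgeR adjusted p = 0.0117), and the call was kept in 4 of the 6 fits. It was the only call among 47 genes of the V-ATPase, lysosome and autophagy list. The cofactors nudC and Tbcb, which act on dynein and on tubulin folding, rose by log2 values of 0.39 and 0.40 (adjusted p = 0.0332 and 0.0403), while none of the tubulin genes in the same list of 17 was called. The initiation factor eIF1 rose by 0.51 (adjusted p = 0.0462), the nucleolar GTPase gene Ns1 by 0.43 (adjusted p = 0.0436) and the cytochrome P450 gene Cyp6a8 by 0.86 (adjusted p = 0.0332). The remaining genes named by the rule, CG3348, CG13896 and CG10337, rose by 0.93, 0.85 and 0.85. Exons of Uhg8, CG3348 and CG10337 overlap a gene on the other strand (atk, Hmu and ref(2)P), and strand use in the counting is unknown, so their values are uncertain. Orcokinin was called with a larger log2 change than pirk. Its levels were at most 2.79 CPM in any of the 6 libraries, too low for the rule, and it is named here after its values were seen.

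The heat shock genes that fell were the inducible ones. In the list of the Hsp70 family and Hsp90, 5 of 15 tested members were called lower, beside 1.13% of all tested genes, and none higher. The median log2 change was -0.22. Hsp70Ba, one of the near-identical inducible Hsp70 copies, had 1269.8, 782 and 438 CPM in DMSO and 255, 111 and 79.3 at 25 µmol/L. Its log2 change was -2.48, or 5.59-fold lower (SE 0.386, edgeR adjusted p = 0.00596), and the call was lost in the fit without 25 µmol/L replicate 2. Hsp68, the most abundant inducible member, had 4843, 4479.5 and 2527 CPM in DMSO and 2268, 1407 and 1057 at 25 µmol/L (log2 change -1.32, SE 0.248, adjusted p = 0.0174). In both genes DMSO replicate 3 was the lowest DMSO library and 25 µmol/L replicate 1 the highest treated one. The groups did not overlap, as the rule required for Hsp70Ba. Hsp70Bb, Hsp70Bbb and Hsp70Bc fell by 1.49, 1.74 and 1.50 on the log2 scale. Reads of Hsp70 copies could be split among them. Hsp70Aa and Hsp70Ab had log2 changes of -1.01 and -0.69 that were not called (adjusted p = 0.141 and 0.108). Exons of Hsp68 overlap CG6000 and lncRNA:CR44097 on the other strand, and those of Hsp70Ab overlap CG3281. As strand use in the counting is unknown, the values of Hsp68 and Hsp70Ab are uncertain.

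The constitutive chaperones of the same list did not follow. Hsc70-4, the main cytosolic Hsc70, had 4324, 4297 and 3811 CPM in DMSO and 4206, 3957 and 3801 at 25 µmol/L, with overlapping groups. Hsc70-3, the chaperone of the endoplasmic reticulum, had a log2 change of -0.22 (edgeR adjusted p = 0.451). Hsp83, the Hsp90 of flies, had 7667, 7311 and 6440 CPM in DMSO, all below the treated libraries with 10452, 9116 and 8031, but its log2 change of 0.37 was not called (SE 0.143, adjusted p = 0.219).

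Of the 7 tested small heat shock genes, Hsp67Bc and Hsp27 were called lower. Hsp67Bc, a partner of stv in protein quality control, had 40.4, 30.6 and 6.72 CPM in DMSO and 5.28, 3.68 and 4.01 at 25 µmol/L (log2 change -2.57, SE 0.454, edgeR adjusted p = 0.0118). Hsp27 had 884, 600.1 and 326 CPM in DMSO and 271, 272 and 215 at 25 µmol/L (log2 change -1.26, SE 0.251, adjusted p = 0.0231). DMSO replicate 3 again lay nearest to the treated libraries. Exons of Hsp27 overlap CR43483 on the other strand. Hsp26 and Hsp23 had log2 changes of -0.58 and -0.45 that were not called, and CG14207 one of 0.39 (adjusted p = 0.192, 0.255 and 0.0888).

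Among 14 co-chaperones, stv and DnaJ-1 were called lower. The gene stv encodes the BAG-domain exchange factor of Hsp70, and it had 213, 143 and 82.4 CPM in DMSO and 67.0, 46.0 and 35.4 at 25 µmol/L (log2 change -1.56, SE 0.262, edgeR adjusted p = 0.0107). DnaJ-1, an Hsp40, had 1078, 803 and 501 CPM against 468, 459 and 424 (log2 change -0.82, SE 0.193, adjusted p = 0.0403). The gene of the transcription factor itself, Hsf, had 120, 88.2 and 104 CPM in DMSO and 131, 134 and 133 at 25 µmol/L, and its log2 change of 0.35 was not called (adjusted p = 0.115).

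The size of the heat shock decrease differed between the title number runs, and its relation to the runs was not tested. In the run with DMSO replicate 3 the log2 difference was -1.38 for Hsp70Ba, -0.50 for Hsp68, -0.58 for Hsp67Bc and -0.27 for Hsp27. In the run with DMSO replicate 1 it was -4.0, -2.20, -3.25 and -2.04. With the run as a term in the fit none of the 9 heat shock genes called lower was past the threshold. Their direction was the same in both runs, which follows from groups that did not overlap. Without DMSO replicate 1, whose levels of these 4 genes were the highest, Hsp70Ba, Hsp70Bbb and stv were still called.

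**Figure D3:**
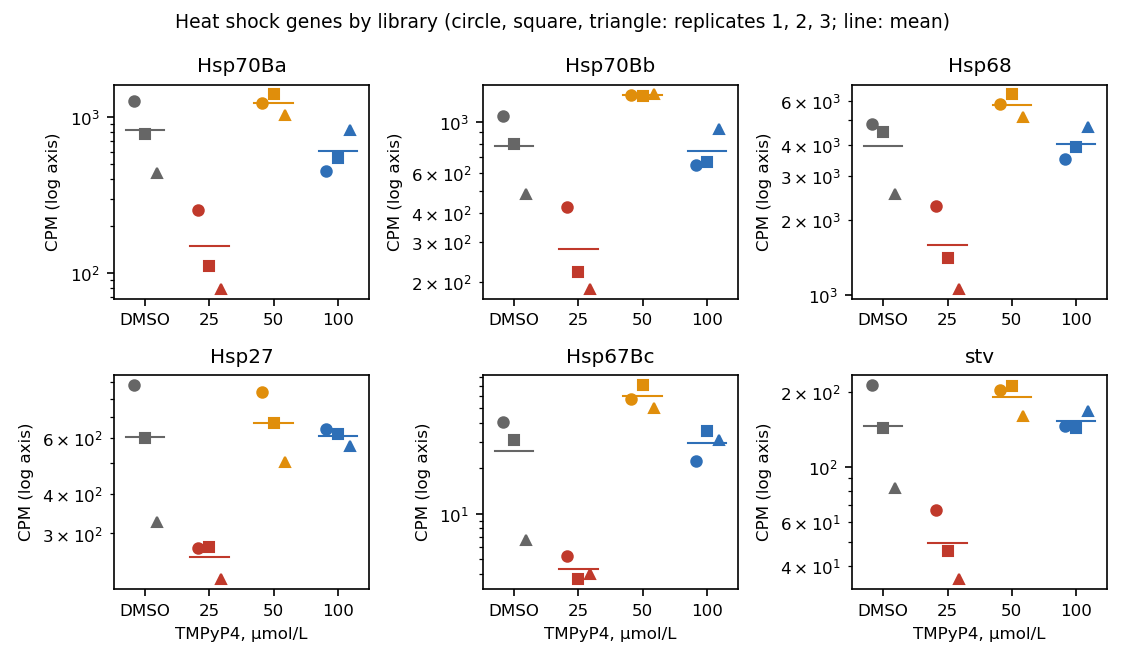
CPM (log axis) of 6 heat shock and co-chaperone genes in all 12 libraries, by group, where circles, squares and triangles are replicates 1, 2 and 3 and the line is the group mean. The 3 libraries at 25 µmol/L lie below those of DMSO, 50 and 100 µmol/L in each panel, and DMSO replicate 3 lies nearest to them among the DMSO libraries.

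Most of the other genes that fell were long. The 39 higher genes had a median exonic length of 1291 bases, and the 9 lower heat shock and co-chaperone genes one of 2324. The other 74 lower genes had a median of 10543 bases, against 2084 over all tested genes, and the shortest of them was AsnS with 1856. When the tested genes with a known length were divided into 5 bins of equal size, the median log2 change went down from bin to bin, at 0.15, 0.09, 0.02, -0.05 and -0.27. The bin of the longest genes, 4054 to 69810 bases, held 69 of the 83 lower genes and 1 of the 39 higher genes.

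This trend ran through whole libraries, also within DMSO. With each gene's log2 CPM taken relative to its mean, the regression slope on log2 exonic length was 0.264, 0.0545 and 0.154 in the DMSO libraries. It was -0.0313, -0.0002 and -0.00268 in the 25 µmol/L libraries. All treated slopes were thus below all DMSO slopes, with DMSO replicate 1 the farthest away. The difference in means was -0.169 (exact two-sided permutation test, p = 0.1, the smallest p that 3 against 3 libraries allow). With a per-library offset for exonic length, edgeR called 58 genes, 35 higher (0.478%) and 23 lower (0.314%), so the split between directions turned from mostly lower to mostly higher. Of the 83 lower genes 22 were called with that offset too, and these were 8 heat shock genes and 14 others. Of the 39 higher genes 18 were called with it too, among them pirk, CG11825, CG12896, Prx6c, Uhg8, Tret1-1, ZnT63C, Pvf2 and GILT1. The other 21 were not, among them Prx6b, lncRNA:CR45820, lncRNA:CR44417, lncRNA:CR43855, GstE3, nudC, Tbcb, eIF1, Ns1 and Cyp6a8. Whether the slope arose in the cells or in the libraries was not tested.

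**Figure D4:**
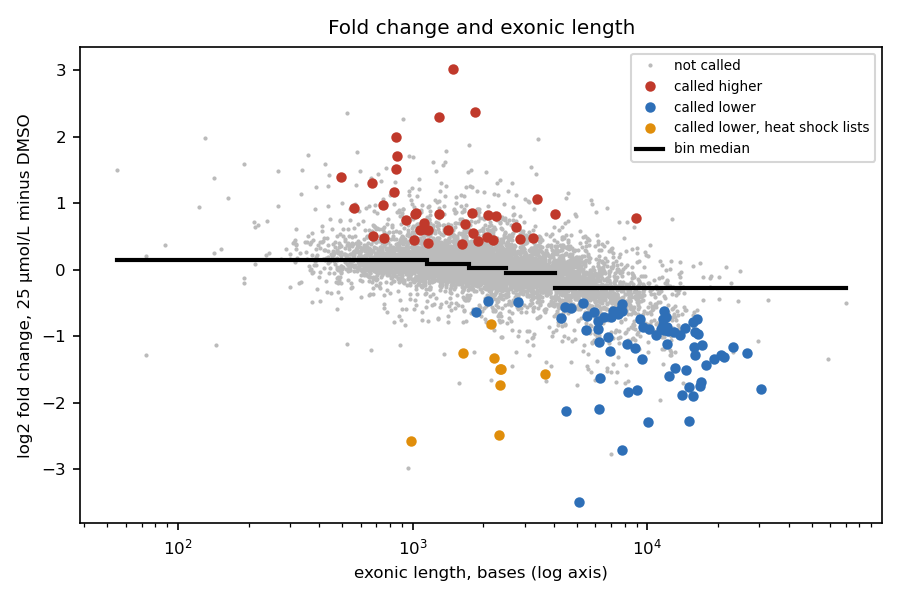
Log2 change at 25 µmol/L against DMSO by exonic length (log axis), 1 point per tested gene with a known length, with bin medians as black lines. The bin medians go down from 0.15 to -0.27. Blue points, the lower genes outside the heat shock lists, gather at the long end, while orange points, the lower heat shock genes, lie at or below 3670 bases.

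Among the long genes, shot and HUWE1 were called in every fit that left out a library, and also with the length offset. The spectraplakin shot, which links actin to microtubules, had 115, 52.99 and 67.0 CPM in DMSO and 21.9, 22.6 and 23.5 at 25 µmol/L. The ubiquitin ligase gene HUWE1 had 462, 276 and 408 CPM in DMSO and 131, 99.2 and 109 at 25 µmol/L. Treated libraries were tightly grouped in both genes, and DMSO replicate 1 was the highest library. The log2 change of shot was -1.79 (SE 0.256, edgeR adjusted p = 0.00318) and became -0.69 with the length offset (adjusted p = 0.0394). That of HUWE1 was -1.75 (SE 0.253, adjusted p = 0.00318) and became -0.97 (adjusted p = 0.00719).

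Among the named genes that fell were the transcriptional regulators CrebA and Smr. CrebA, a bZIP factor that drives genes of the secretory pathway, had 35.3, 18.7 and 17.0 CPM in DMSO and 3.27, 4.83 and 8.16 at 25 µmol/L (log2 change -2.13, SE 0.357, edgeR adjusted p = 0.0107). With the length offset it was still called, at -1.97 (adjusted p = 0.00607). Smr, the corepressor SMRTER, had 29.8, 14.9 and 16.7 CPM in DMSO and 4.15, 6.10 and 6.15 at 25 µmol/L (log2 change -1.90, SE 0.375, adjusted p = 0.0211). With the offset it lay at the edge of the threshold, at -1.15 (adjusted p = 0.0498). Its exons overlap lncRNA:CR43963 on the same strand and an antisense RNA on the other.

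In the list of Polycomb, trithorax and remodelling genes, 3 of 38 tested members were called lower, beside 1.13% of all tested genes, and none higher. The median log2 change was -0.28 beside a median exonic length of 5861.5 bases. The histone H3 lysine methyltransferase trx had 19.1, 9.03 and 10.6 CPM in DMSO and 3.27, 3.94 and 3.26 at 25 µmol/L (log2 change -1.88, SE 0.358, edgeR adjusted p = 0.0186). Ncoa6, a subunit of the Trr methyltransferase complex, had 13.2, 6.80 and 5.57 CPM in DMSO and 1.63, 1.78 and 1.76 at 25 µmol/L (log2 change -2.29, SE 0.496, adjusted p = 0.029). The chromatin remodeller kis had 129, 63.1 and 71.5 CPM in DMSO and 31.7, 36.2 and 36.1 at 25 µmol/L (log2 change -1.34, SE 0.226, adjusted p = 0.0107). In all 3 the groups did not overlap, as the rule required for trx and Ncoa6, and DMSO replicate 1 was the highest library. With the length offset none of the 3 was called, and the median of the list was -0.08.

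Single genes of RNA regulation fell. The splicing factor gene mbl had 12.8, 6.15 and 4.94 CPM in DMSO and 0.377, 2.03 and 2.51 at 25 µmol/L (log2 change -2.27, SE 0.511, edgeR adjusted p = 0.0332), and was the only call among 29 hnRNP and SR protein genes. AGO1, the Argonaute of the microRNA pathway, had 24.1, 11.8 and 15.0 CPM in DMSO and 2.01, 6.99 and 5.27 at 25 µmol/L (log2 change -1.84, SE 0.417, adjusted p = 0.0366). It was the only call among 21 genes of small RNA pathways, and AGO2, the Argonaute of RNA interference, had a log2 change of -0.41 that was not called (adjusted p = 0.0888). With the length offset neither mbl nor AGO1 was called (adjusted p = 0.13 and 0.0645). Exons of trx, Ncoa6 and AGO1 overlap genes on the other strand.

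The other 4 named lower genes were Cals, which encodes calsyntenin, Prosap, a scaffold of the Shank family, heca, or headcase, and CG14073. They fell by 2.10, 1.81, 1.76 and 2.72 on the log2 scale, with edgeR adjusted p of 0.0332, 0.037, 0.0186 and 0.0403. CG14073 had at most 1.27 CPM in any treated library. Their calls were kept in 1, 1, 4 and 1 of the 6 fits that left out a library, and none was called with the length offset. Exons of Cals overlap sv and those of heca overlap lncRNA:CR46114, both on the other strand. CG12105 fell as well but was too low for the rule, with at most 2.08 CPM, and is named after its values were seen.

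Some genes of the basement membrane and other hemocyte products fell. Of 18 tested genes of the matrix and basement membrane list, 5 were called lower, beside 1.13% of all tested genes, and none higher. The other 13 were not called, and the median log2 change was -0.25, or -0.05 with the length offset. Col4a1, a collagen IV chain, had 995, 873 and 858 CPM in DMSO and 608, 452 and 535 at 25 µmol/L (log2 change -0.77, SE 0.168, edgeR adjusted p = 0.0297). The second collagen IV chain, vkg, had 485, 444 and 459 CPM against 305, 260.0 and 285 (log2 change -0.71, SE 0.143, adjusted p = 0.024). The perlecan gene trol had 52.6, 31.0 and 36.8 CPM against 14.5, 17.3 and 17.6 (log2 change -1.29, SE 0.212, adjusted p = 0.0103). The laminin chains LanA and LanB2 fell by 0.74 and 0.63 on the log2 scale (adjusted p = 0.0332 and 0.0403). The groups did not overlap for any of the 5, as for every called gene but htt.

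Hml, the clotting protein that marks mature hemocytes, had 473, 413 and 451 CPM in DMSO and 252, 243 and 216 at 25 µmol/L (log2 change -0.91, SE 0.176, edgeR adjusted p = 0.0198). The hemocyte list as a whole had 4 of 14 tested members called lower (Hml, vkg, Col4a1 and zfh1), beside 1.13% of all tested genes. Its summed level over 21 markers was 2595 to 2964.5 CPM in DMSO and 1729 to 1956 at 25 µmol/L. In a bulk sample, fewer cells of a type and less RNA per cell cannot be told apart. Other hemocyte genes were not called, such as the scavenger receptor crq with 88.2, 77.7 and 94.3 CPM against 86.2, 94.5 and 101. The tested hemocyte markers had a median exonic length of 6060 bases. With the length offset none of the 5 matrix genes and of the hemocyte markers only zfh1 was called.

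Most other gene groups had no call. As 1.66% of all tested genes were called, the absence of a call in a short list shows little about its members. Among the genes a G-quadruplex ligand might be thought to touch, none of 17 quadruplex-unwinding helicases was called. Their median log2 change was -0.13, or -0.06 with the length offset. The smallest adjusted p there was that of Blm (log2 change -0.52, edgeR adjusted p = 0.172). None of 41 genes of DNA damage and repair, 42 of DNA replication and 53 of the cell cycle and mitosis was called, with median log2 changes of -0.06, -0.07 and -0.12. At an unadjusted p under 0.05, 8 of the 53 cell cycle genes were lower, beside 8.2% of all tested genes. None of 85 cytosolic ribosomal protein genes, 73 mitochondrial ribosomal protein genes, 69 nuclear-encoded respiratory chain genes and 33 proteasome genes was called, and their medians lay between 0.04 and 0.10, and between -0.11 and -0.04 with the length offset. The median of the 11 tested genes of the mitochondrial genome was 0.36, with DMSO and treated libraries overlapping for all 11. None of 16 apoptosis genes, 23 genes of the unfolded protein and integrated stress response and 16 genes of the JNK pathway was called.

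**Figure D5:**
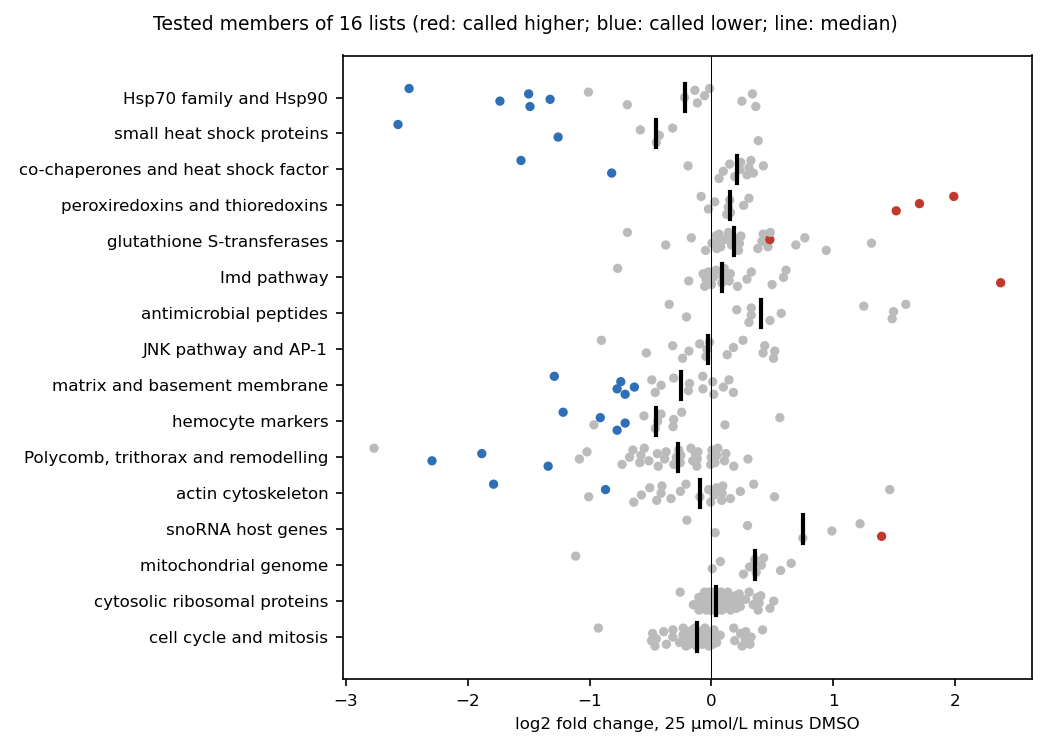
Log2 change at 25 µmol/L against DMSO of the tested members of 16 lists, 1 point per gene, red where called higher, blue where called lower and grey where not called, with the list median as a black line. Called members are few in any list. The Prx6 genes and pirk stand far to the right of their lists, and the inducible heat shock genes to the left of theirs.

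The same 25 µmol/L libraries were set against the 2 higher concentrations, to ask where the lowest one differed. The comparisons share the 25 µmol/L libraries with the one against DMSO and are not independent of it. The same edgeR test called 22 genes as differing from 50 µmol/L (0.3% of those tested), of which 8 were higher at 25 (0.109%) and 14 lower (0.191%). It called 15 as differing from 100 µmol/L (0.205%), of which 4 were higher at 25 (0.0546%) and 11 lower (0.15%). Heat shock genes and co-chaperones made up 12 of the 22 and 7 of the 15, and all of them were lower at 25 µmol/L. Without 25 µmol/L replicate 2, or without replicate 3, none of the 7 was called against 100 µmol/L.

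Among these genes the difference was largest for Hsp67Bc, at -3.78 against 50 µmol/L and -2.75 against 100 µmol/L (edgeR adjusted p = 0.00059 and 0.0206). At 25 µmol/L, Hsp70Ba averaged 148 ± 93.8 CPM (SD, n = 3). Its mean was 829.9 ± 418 CPM in the solvent control, 1220.4 ± 182 at 50 µmol/L and 606 ± 193 at 100 µmol/L. The level at 25 µmol/L was thus the lowest of the 4, and its log2 difference was -3.04 from 50 and -2.03 from 100 µmol/L (adjusted p = 0.000795 and 0.0378). Hsp68 and stv had the same order, lowest at 25 and highest at 50 µmol/L. Hsp26, Hsp23 and Hsp70Ab differed between 25 and 50 µmol/L (log2 differences -1.09, -1.01 and -1.05), while they were not called at 25 µmol/L against DMSO. AsnS, asparagine synthetase, was also lower at 25 than at 50 and 100 µmol/L, by log2 values of -1.16 and -0.82 (adjusted p = 0.000656 and 0.0249).

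Immune and stress signalling genes were among those higher at 25 µmol/L. The level of pirk was 77.1 ± 19.8 CPM (SD, n = 3) at 25, 9.02 ± 0.604 at 50 and 28.3 ± 6.85 at 100 µmol/L, beside 14.8 ± 5.01 in DMSO. It differed by 3.09 from 50 and by 1.44 from 100 µmol/L (edgeR adjusted p = 1.22e-05 and 0.0201). Without 25 µmol/L replicate 2, or without replicate 3, pirk was still called against 50 but not against 100 µmol/L. Rel averaged 401 CPM at 25 and 209 at 50 µmol/L (log2 difference 0.94, adjusted p = 0.0109), beside 284 in DMSO. Ets21C, a transcription factor downstream of JNK, and the stress gene Gadd45 were higher than at 50 µmol/L by 1.06 and 1.02 (adjusted p = 0.00129 and 0.0134), and neither was called against DMSO. In the fits without 25 µmol/L replicate 2 or replicate 3, Ets21C was still called against 50 µmol/L, while Rel and Gadd45 were not. Ets21C averaged 64.8 CPM at 25, 30.9 at 50 µmol/L and 45.4 in DMSO, and Gadd45 averaged 31.8, 15.6 and 23.6. For pirk, Rel, Ets21C and Gadd45 the mean at 50 µmol/L was thus below that of DMSO, a difference that was not tested.

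The run of Prx6 genes and CG11825 was not called as differing between concentrations. Prx6c averaged 128 CPM at 25, 86.5 at 50 and 93.4 at 100 µmol/L, and CG11825 averaged 27.5, 22.6 and 19.1. Their log2 differences from 50 µmol/L were 0.56 and 0.29 (SE 0.189 and 0.247, edgeR adjusted p = 0.392 and 0.615), which does not show that the levels were equal. Among the long genes, shot averaged 22.6 CPM at 25, 20.2 at 50 and 18.6 at 100 µmol/L, and HUWE1 averaged 113, 104 and 86.5, with no call between concentrations. The zinc importer foi was not called at 25 µmol/L against DMSO. It was lower at 25 than at 100 µmol/L by a log2 value of -1.91 (edgeR adjusted p = 2.2e-05). The group means of foi were 68.6 and 257 CPM. It was the only gene called against 100 µmol/L without 25 µmol/L replicate 2, and likewise without replicate 3.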

How the data were processed

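The authors deposited whole-number read counts per gene for each library, and no normalized values were used. Per the submitters' processing notes, the tools were FastQC 0.11.8, MultiQC 0.9, HISAT2 2.0.5, SAMtools 1.7 and HTSeq 0.9.1, with the fly build dm6. How zebrafish reads were handled, and whether counting used strand, is not given in the sources used here. The 5 entries of the counter that name no gene were left out. In the 6 libraries they included 0.832 to 1.04% of reads with no feature and 1.87 to 2.71% ambiguous ones. All columns matched a sample. Gene names and exonic lengths came from BDGP6.54 (Ensembl 115), which held 17358 of the 17494 gene IDs.

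From the deposited counts, edgeR 4.0.16 in R 4.3.3 was fitted over all 12 libraries with a mean per group. Genes passed filterByExpr (minimum count 10, total 15), library sizes were scaled by TMM, and a quasi-likelihood F-test was run for each contrast with Benjamini-Hochberg adjustment over the 7328 genes tested. Genes with an adjusted p under 0.05 are called. The median SE of a log2 change was 0.16, which at 3 libraries per group sets the precision. The script was tested on simulated counts. A length offset was a lowess curve (span 0.3) of each library's log2 CPM on log2 exonic length, with log2 CPM at a prior count of 2.

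Named genes were the 14 largest positive and 14 largest negative log2 changes among called genes whose groups did not overlap and whose mean log2 CPM reached 1, plus up to 4 members per list with the smallest p. The groups, lists and rules were chosen with earlier results of these data known. Of the entries of the lists, 16 matched no gene. Alternatives were DESeq2 1.42.0, its size factors, other count filters, only the groups compared, a replicate block, a title number run block, the length offset, and leaving out each library. Sequences and quadruplex motifs were not analysed here.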

Additional observations from a re-analysis of the deposited data

Results flagged for a closer look

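Genes of the lists whose level at 25 µmol/L differed from that at 50 or 100 µmol/L in a direct edgeR test of the difference are given here. These tests share the 25 µmol/L libraries with the comparison against DMSO. Values are log2 differences, positive where 25 µmol/L was higher, and each passed an adjusted p of 0.05.

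In the Imd pathway, pirk differed by 3.09 from 50 and 1.44 from 100 µmol/L, and Rel by 0.94 from 50 µmol/L. Of the inducible Hsp70 family, Hsp70Ba differed by -3.04 from 50 and -2.03 from 100 µmol/L. Hsp70Bbb differed by -2.43 and -1.64, Hsp70Bb by -2.23 and -1.43, and Hsp68 by -1.87 and -1.35. Of the small heat shock genes, Hsp67Bc differed by -3.78 and -2.75, Hsp27 by -1.41 and -1.27, and Hsp26 by -1.09 from 50 µmol/L. The co-chaperone stv differed by -1.95 and -1.62, and DnaJ-1 by -1.17 from 50 µmol/L. MsrA, a methionine sulfoxide reductase, differed by 0.59 from 100 µmol/L. The stress-related genes Ets21C and Gadd45 differed by 1.06 and 1.02 from 50 µmol/L. With the title number run as a term, the call that remained among all genes was pirk against 50 µmol/L. No test for outlying values of single libraries was run, since each group holds 3. Without 25 µmol/L replicate 2, or without replicate 3, foi alone was called against 100 µmol/L. Against 50 µmol/L, Rel, Gadd45, Hsp27, Hsp26 and DnaJ-1 were not called in those fits. Fits that left out each library are described above and below.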

How the results depend on the processing

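Against DMSO, 122 genes were called (39 higher, 83 lower). DESeq2 called 230 (67 higher, 163 lower), no filter on low counts gave 464 (107 and 357), and the title number run block gave 12 (4 and 8). The length offset gave 58, with 23 lower, and only the groups compared gave 17 higher. Leaving out 1 library gave 6 to 200 calls, 4 to 79 higher and 2 to 140 lower. Between 25 and 50 µmol/L, the 22 calls became 42 with DESeq2, 207 with no filter and 1 with the run block, and 10 to 64 without 1 library. Between 25 and 100 µmol/L, the 15 calls became 25 with DESeq2, 70 with no filter and 25 with only the groups compared. They became 0 with the run block, where edgeR had 255 genes at an unadjusted p under 0.05, and 1 to 23 without 1 library. The length slope difference ran from -0.220 to -0.115 without 1 library. The log2 changes of the 122 genes called against DMSO had the same sign in these alternatives wherever they were tested. With the length offset some list medians changed sign, among them JNK from -0.02 to 0.23, cytosolic ribosomal proteins from 0.04 to -0.11, small RNA pathways from -0.13 to 0.01 and actin cytoskeleton from -0.09 to 0.04. The cause of these shifts was not tested. Same-numbered libraries did not deviate together from their group means (r = -0.331, -0.0927 and -0.211 over genes). Pairs that shared a title number run had r = 0.241, 0.269 and -0.1465. These values cannot settle whether the replicate numbers mark shared cultures, which the labels do not state. A replicate block gave 149 calls (40 higher, 109 lower). With 3 libraries per group, counts of calls are imprecise, and low genes such as CG14073 rest on few reads.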

Other observations

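The higher genes were spread over the arms. Of the tested genes, 13 of 1461 on 2R, 10 of 1397 on 3L, 8 of 1287 on 2L, 6 of 1771 on 3R and 2 of 1277 on X were called higher. The actin cytoskeleton list held, beside shot, a second called gene, the spectrin gene kst, which fell by 0.87 on the log2 scale (edgeR adjusted p = 0.026). With the length offset kst was not called. In the Hippo and the insulin and TOR lists no gene was called. At an unadjusted p under 0.05, 5 of 19 and 5 of 26 tested members were lower, beside 8.2% of all tested genes. Both lists hold long genes, with median exonic lengths of 3473 and 4799.5 bases. Their median log2 changes were -0.26 and -0.15, or -0.01 and -0.03 with the length offset.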
